A study of Mus musculus with 24 samples.

Results

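The 10 genes described here form the core and first outputs of the circadian clock: Clock, Arntl, Per1, Per2, Cry1, Nr1d1, Nr1d2, Dbp, Tef and Bhlhe40. They were taken as a list of gene symbols and read out of a table of 54838 genes through GENCODE M21 names. All 10 were found, and all 10 were among the 13116 genes with enough counts to be tested. The question put to the data was how these genes stood in microglia exposed to neural probes or to a bacterial stimulus.

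In mammalian cells CLOCK and ARNTL (also called BMAL1) form a dimer that binds E-box sequences and switches on the Per, Cry and Nr1d genes. PER and CRY proteins then block that dimer, and the REV-ERB receptors encoded by Nr1d1 and Nr1d2 repress Arntl, which closes the loop. Several of these genes, Per1 above all, are also switched on quickly by outside signals such as serum or cAMP, and in macrophages and microglia REV-ERB proteins are known to restrain inflammatory genes.

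Poly-A RNA was sequenced from SIM-A9 cells, a spontaneously immortalised mouse microglial line, in 24 libraries that make 8 groups of 3. The groups were control (labelled untreated), LPS (bacterial lipopolysaccharide, an inflammatory stimulus), (GT)6 SWCNT (single-walled carbon nanotubes, (GT)6 being a short repeat DNA), COOH SWCNT (carboxylated nanotubes), AAV (adeno-associated virus), the calcium dye Fura-2 and a pair of voltage-sensitive dyes, DiBASC2 and Di-2-ANEPEQ. All cells, controls included, were without serum, in 270 uL of medium, for 2 h before the start, and RNA was taken 2 h after 30 uL of sample was added. Whether the control wells received a vehicle, the doses and the cargo of the virus are not given in the sources used here. The labels do not say whether replicates came from separate cultures, so the p-values measure the spread between these libraries, which may be technical. There was one sampling time, so levels can be compared between groups but no rhythm or phase can be read.

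Library totals lay between 17364272 and 29259221 counts, and a member held between 47 counts (Per2 in an LPS library) and 4219 counts (Bhlhe40 in a (GT)6 SWCNT library). All 10 microglia and macrophage markers checked were detected, with a summed level of 2134 to 2397 CPM per library (counts scaled by library size with TMM factors), although P2ry12 (mean 2.28 CPM) and Tmem119 (mean 3.79 CPM) were low. Of 21 markers of other cell types, 19 averaged under 1 CPM. The exceptions, seen after the values were known, were Mbp at 4.42 CPM and Kdr at 124 CPM, with the endothelial markers Cldn5 at 0 and Pecam1 and Cdh5 at no more than 9 counts in any library. The summed endothelial list, nearly all Kdr, averaged 131 CPM in control, 94.98 in LPS and 105 in (GT)6 SWCNT, and its part in the results was not tested. Tnf stood at 35.6 CPM in control and 1144 CPM in LPS, Il1b at 9.12 and 443 CPM, and Il6 at 0.201 and 39.99 CPM, as the LPS label requires. Running numbers in the library names come in blocks by group, so library order and group cannot be told apart. In RNA from whole wells, fewer cells making a transcript and less of it per cell cannot be told apart.

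Promoter sequences show which clock elements lie next to the starts of these genes. RefSeq windows on GRCm38.p6, from 250 bases before to 50 bases after a start, were at hand for 8 of the members (13 windows, since some genes have several starts), and Per2 and Bhlhe40 had no window. The E-box CACGTG, a palindrome read the same on both strands, was present in 4 of the 13 windows, in Per1, Cry1 and Tef, against 7.15% of all 32851 windows of the same length. For each of these 3 genes a window with an E-box is shown, 5′ to 3′ on the gene's strand, with the E-box in capitals.
Per1, chr11:69098699-69098998, plus strand: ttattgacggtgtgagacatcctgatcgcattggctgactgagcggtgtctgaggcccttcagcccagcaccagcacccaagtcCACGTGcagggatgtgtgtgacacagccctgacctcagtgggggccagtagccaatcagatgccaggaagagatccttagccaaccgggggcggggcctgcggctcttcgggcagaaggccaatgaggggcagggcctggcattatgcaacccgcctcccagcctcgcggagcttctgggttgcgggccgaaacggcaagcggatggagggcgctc
Cry1, chr10:85185005-85185304, minus strand: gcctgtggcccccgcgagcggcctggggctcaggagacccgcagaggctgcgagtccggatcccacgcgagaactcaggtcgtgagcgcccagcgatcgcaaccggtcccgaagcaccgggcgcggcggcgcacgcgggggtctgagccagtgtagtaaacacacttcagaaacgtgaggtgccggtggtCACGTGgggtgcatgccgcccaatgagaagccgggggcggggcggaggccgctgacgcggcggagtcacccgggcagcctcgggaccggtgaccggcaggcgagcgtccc
Tef, chr15:81802423-81802722, plus strand: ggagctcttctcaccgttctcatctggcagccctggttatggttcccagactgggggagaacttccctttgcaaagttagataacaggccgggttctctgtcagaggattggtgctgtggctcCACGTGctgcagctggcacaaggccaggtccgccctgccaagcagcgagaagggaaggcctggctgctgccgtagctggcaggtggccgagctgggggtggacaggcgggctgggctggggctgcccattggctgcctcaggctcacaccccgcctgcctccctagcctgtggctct

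The E-box begins 166 bases before the start in Per1, 60 bases before it in Cry1 and 127 bases before it in this Tef window. The second Tef window holds one 138 bases before its start. Neither the full cAMP response element TGACGTCA (1.79% of all windows) nor the D-box TTATGTAA (0.938%), searched on both strands, was found in any of the 13. Only these exact spellings were searched. Sites that differ by a letter, such as ttatgcaa in the Per1 window shown, were not counted. The shorter TGACG, which lies inside the cAMP response element, was found in both Per1 windows and in Cry1, and 20.8% of all windows hold it on either strand. The ROR element core AGGTCA was found in windows of Arntl, Clock, Nr1d2 and Per1 (16.3% of all windows). A match is a description of the letters only. Windows of the same gene can overlap, as in Arntl and Clock, so the 13 are not separate promoters. Sites outside the windows were not searched.

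Bhlhe40 was the most abundant member per length of transcript and Per2 the least. In control, levels per kb of annotated exon were 22.7 ± 0.559 CPM for Bhlhe40 (SD, n = 3), 10.4 ± 0.785 for Cry1, 10.4 ± 0.503 for Per1 and 5.23 ± 0.405 for Tef. Then came Nr1d2 at 3.86 ± 0.141, Clock at 2.98 ± 0.157, Dbp at 2.47 ± 0.0665, Nr1d1 at 1.88 ± 0.218, Arntl at 1.11 ± 0.194 and Per2 at 0.606 ± 0.0572 CPM per kb. Cry1 and Per1 did not differ beyond their spread, whereas the other neighbours in this order differed by more than either SD.

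The clock genes moved in both directions. Per1 and Bhlhe40, repressors that respond to outside signals, rose by 1.37- to 1.59-fold in both nanotube groups. In LPS neither was called higher and Bhlhe40 fell. The REV-ERB gene Nr1d1 and the output genes Dbp and Tef also fell in LPS, while Cry1 and Clock rose. Genes were called at an adjusted p under 0.05 in edgeR's quasi-likelihood test, with Benjamini-Hochberg adjustment over all genes tested in a comparison. In LPS 6 of the 10 members were called, 2 higher and 4 lower, where 28.3% of all genes tested were called, 13.8% higher and 14.5% lower. With (GT)6 SWCNT 4 were called, 2 higher and 2 lower (20.4% of all genes, 9.90% higher and 10.5% lower). With COOH SWCNT 3 were called, all higher (20.0% of all genes, 9.39% higher and 10.6% lower). With DiBASC2 1 was called, higher (5.47% of all genes, 1.82% higher and 3.64% lower). No member was called with Fura-2 (0.252% of all genes, 0.0381% higher and 0.213% lower), with Di-2-ANEPEQ (3.08%, 0.686% higher and 2.39% lower) or with AAV (5.00%, 1.84% higher and 3.16% lower). All 7 comparisons share the control libraries, and the members were chosen with earlier results of these data known. The members were also well counted, the scarcest, Per2, averaging 83.8 counts per library. In a fit of genes with a mean of at least 50 counts, 34% of genes were called in LPS and 25.9% with (GT)6 SWCNT. The shares there were 25.2% with COOH SWCNT and 7.33% with DiBASC2. The median absolute log2 fold change of the members was 0.25 in LPS (0.14 over all genes tested), 0.35 for (GT)6 SWCNT (0.12 over all genes) and 0.17 for COOH SWCNT (0.12 over all genes). It was 0.15 for DiBASC2 (0.08 over all genes), 0.11 for AAV (0.09), 0.07 for Fura-2 (0.07) and 0.07 for Di-2-ANEPEQ (0.08).

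**Figure D1:**
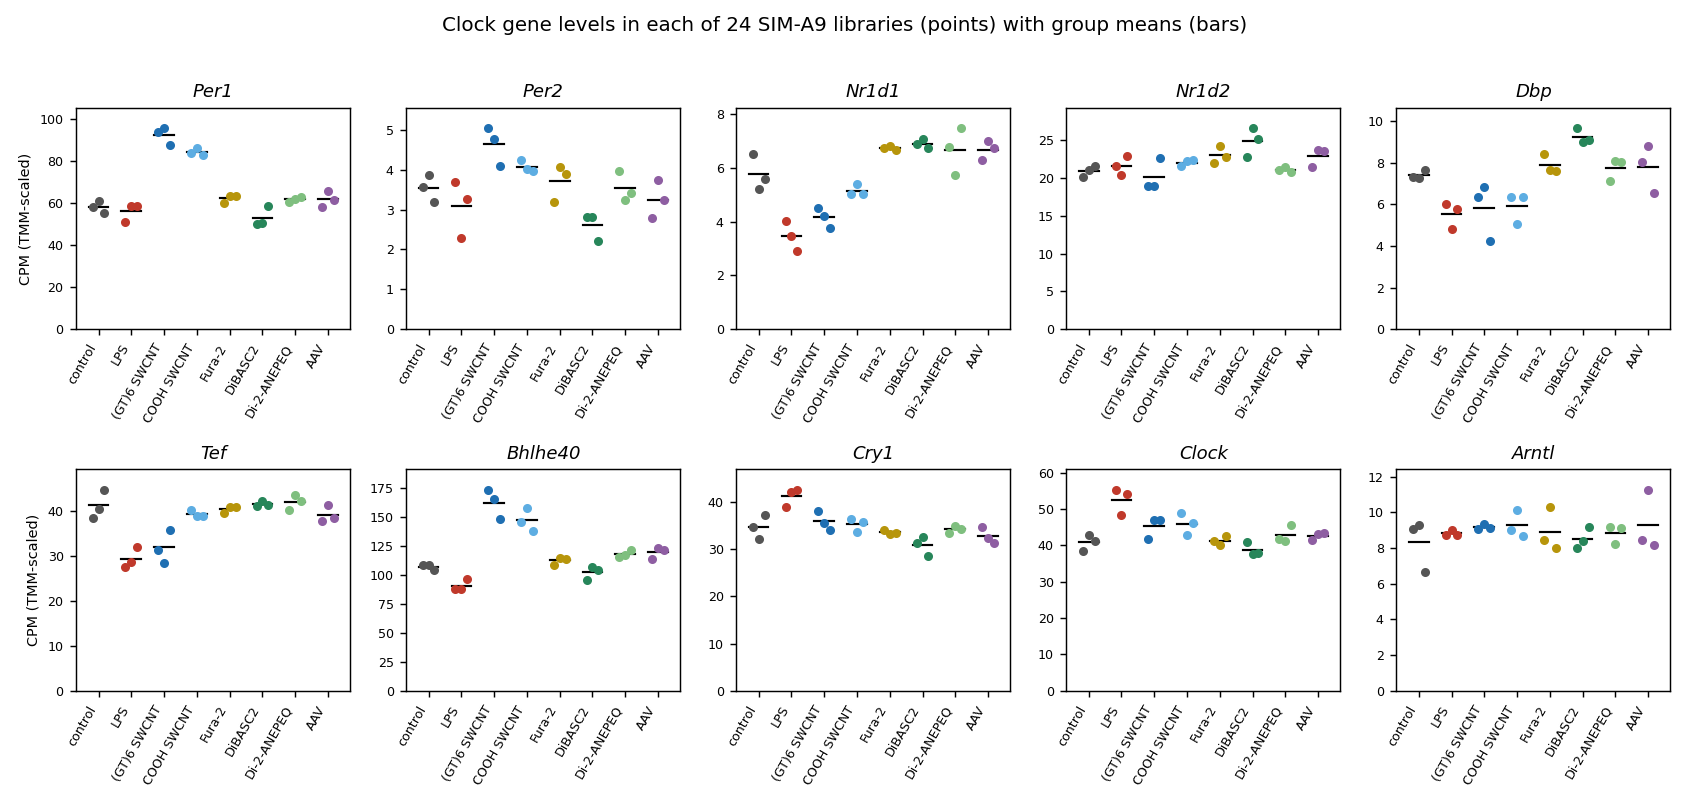
Level of each of the 10 clock genes (CPM after TMM scaling, vertical axis from 0) in the 8 groups on the horizontal axis; points are the 3 libraries of a group and bars their mean. Per1 and Bhlhe40 stand higher in both nanotube groups than in any other group, while Nr1d1 and Tef are lowest in LPS and (GT)6 SWCNT.

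Per1 (ENSMUSG00000020893.17, chromosome 11, 69095217 to 69109960, plus strand, protein-coding) encodes a PER protein, a repressor of the CLOCK and ARNTL dimer. It read 58.3, 61.2 and 55.5 CPM in the control libraries, 94.0, 95.8 and 87.8 CPM in (GT)6 SWCNT and 83.7, 86.1 and 82.7 CPM in COOH SWCNT. Every nanotube library lay above every library of the other 6 groups. Per1 rose by a log2 fold change of 0.67 ± 0.06 (SE) in (GT)6 SWCNT, which is 1.59-fold (adjusted p 5.35e-12), and by 0.53 ± 0.06 or 1.44-fold in COOH SWCNT (adjusted p 4.59e-09). In LPS the libraries read 51.0, 58.6 and 58.5 CPM and overlapped the controls. The log2 fold change there was −0.06, with a 95% interval from −0.18 to 0.06 and an adjusted p of 0.525. Set directly against LPS, Per1 was 1.65-fold higher in (GT)6 SWCNT (log2 0.72 ± 0.06, adjusted p 4.06e-13) and 1.499-fold higher in COOH SWCNT (0.58 ± 0.06, adjusted p 9.15e-11). These direct tests compare no control library. Between the nanotube groups the difference was 0.14 ± 0.05 with an adjusted p of 0.0602, and 7 of 15 alternative analyses called it, with values from 0.10 to 0.28.

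Per2 (ENSMUSG00000055866.9, chromosome 1, 91415982 to 91459324, minus strand, protein-coding), the second PER gene, was scarce, with 123 counts in its fullest library. It read 3.57, 3.87 and 3.20 CPM in control and 5.05, 4.77 and 4.10 CPM in (GT)6 SWCNT, and these libraries did not overlap. The log2 fold change was 0.39 ± 0.16 and did not pass (adjusted p 0.0757). It passed without (GT)6 SWCNT replicate 3 and with length and GC trends removed (adjusted p down to 0.0358). Against LPS, where Per2 read 3.70, 2.30 and 3.27 CPM, it was called higher in (GT)6 SWCNT (0.61 ± 0.16, adjusted p 0.00492) and not without LPS replicate 2 (adjusted p 0.0767). In COOH SWCNT it read 4.25, 4.01 and 3.97 CPM, and its call against LPS (0.41 ± 0.16, adjusted p 0.0451) was lost in 11 of 15 alternatives. The lowest Per2 group was DiBASC2 at 2.81, 2.82 and 2.22 CPM, a log2 fold change of −0.44 ± 0.17 against control that did not pass (adjusted p 0.132).

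Cry1 (ENSMUSG00000020038.10, chromosome 10, 85131700 to 85185064, minus strand, protein-coding) encodes a cryptochrome, the partner of PER proteins in repression. It read 34.8, 32.1 and 37.3 CPM in control and 39.02, 42.2 and 42.6 CPM in LPS, with no overlap. It rose by 0.25 ± 0.06 or 1.19-fold in LPS (adjusted p 0.00126). In (GT)6 SWCNT it read 38.1, 35.6 and 34.1 CPM and in COOH SWCNT 36.4, 33.6 and 35.8 CPM, inside or close to the control range, with log2 fold changes of 0.06 and 0.03 (adjusted p 0.598 and 0.805). Both nanotube groups were called lower than LPS, by −0.20 ± 0.06 (adjusted p 0.0146) and −0.23 ± 0.06 (adjusted p 0.00264). The first of these calls was lost without (GT)6 SWCNT replicate 2 or 3 or LPS replicate 2 or 3 (adjusted p up to 0.0833).

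Of the positive arm, Clock was called in 2 treatments and Arntl in none. Clock (ENSMUSG00000029238.11, chromosome 5, 76209868 to 76304792, minus strand, protein-coding) encodes the DNA-binding partner of ARNTL. It read 38.6, 42.9 and 41.1 CPM in control and 55.4, 48.2 and 54.1 CPM in LPS. The LPS libraries lay above every library of the other groups, except that a COOH SWCNT library at 48.8 CPM passed the lowest of them. Clock rose 1.28-fold in LPS (log2 0.36 ± 0.06, adjusted p 1.04e-05). In COOH SWCNT it read 48.8, 42.8 and 46.3 CPM, overlapped control slightly and was called higher by 0.17 ± 0.06 (adjusted p 0.0418). That call was lost without control replicate 1 or 3 or COOH SWCNT replicate 1 or 3 and with length and GC trends removed (adjusted p up to 0.227). For (GT)6 SWCNT the value was 0.14 ± 0.06 (adjusted p 0.101), and 3 of 15 alternatives called it (adjusted p down to 0.026). Set directly against COOH SWCNT, (GT)6 SWCNT stood at −0.03 (adjusted p 0.793). Both nanotube groups were called lower than LPS, by −0.22 ± 0.06 for (GT)6 SWCNT (adjusted p 0.00651) and −0.19 ± 0.06 for COOH SWCNT (adjusted p 0.0101). The former was lost without (GT)6 SWCNT replicate 1, and the latter without LPS replicate 1 or COOH SWCNT replicate 2 and with upper-quartile or no scaling factors (adjusted p up to 0.12).

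Arntl (ENSMUSG00000055116.8, chromosome 7, 113207465 to 113314126, plus strand, protein-coding) was the steadiest member. Its group means lay between 8.35 ± 1.46 CPM in control (SD, n = 3) and 9.31 ± 1.71 CPM in AAV, and its libraries between 6.68 CPM in a control and 11.3 CPM in an AAV library. On the log2 scale its group means spanned 0.16, about the size of the pooled SD between replicates of 0.16, and 84.8% of all genes tested spanned a wider range. None of the 7 treatments was called, and the smallest adjusted p was 0.475 in COOH SWCNT. Its exons meet Gm45355 on the other strand over 0.439% of their length.

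**Figure D2:**
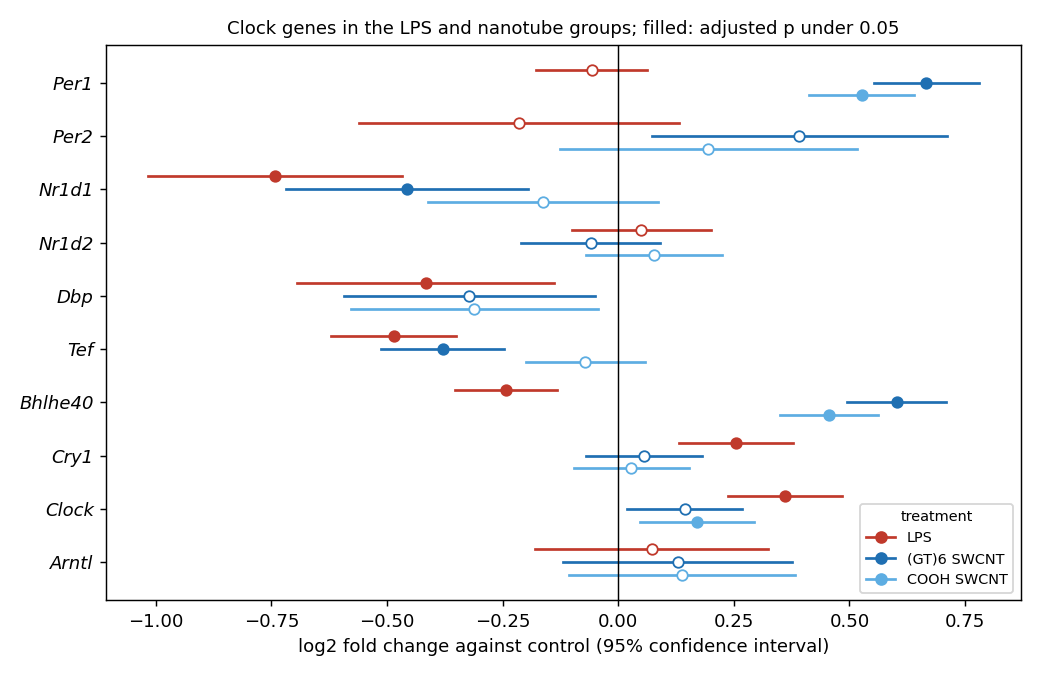
Log2 fold change against control (horizontal axis) of each clock gene in LPS, (GT)6 SWCNT and COOH SWCNT, with 95% confidence intervals; filled points passed an adjusted p under 0.05. Per1 and Bhlhe40 lie to the right in both nanotube groups, with Bhlhe40 to the left in LPS, and Nr1d1 and Tef lie to the left in LPS and (GT)6 SWCNT.

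Nr1d1 (ENSMUSG00000020889.11, chromosome 11, 98767932 to 98775333, minus strand, protein-coding) encodes REV-ERB alpha, a nuclear receptor that represses Arntl, and had the widest range of group means among the members, 0.99 on the log2 scale. It read 6.54, 5.23 and 5.61 CPM in control and 4.02, 3.47 and 2.90 CPM in LPS. All 3 LPS libraries lay below all control libraries. Nr1d1 fell by 0.74 ± 0.14 on the log2 scale in LPS, to 59.8% of control (adjusted p 3.54e-05). In (GT)6 SWCNT it read 4.52, 4.21 and 3.75 CPM, again below every control library, and fell by 0.46 ± 0.13 (adjusted p 0.0085), a call lost without control replicate 1 (adjusted p 0.0902). In COOH SWCNT it read 5.05, 5.41 and 5.03 CPM and overlapped control (−0.16 ± 0.12, adjusted p 0.396). COOH SWCNT stood 1.495-fold above LPS (0.58 ± 0.13, adjusted p 0.00067), whereas (GT)6 SWCNT against LPS was 0.28 ± 0.14 (adjusted p 0.161). Set directly against COOH SWCNT, (GT)6 SWCNT stood at −0.30 and did not pass (adjusted p 0.0975), nor did it in any of 15 alternatives. Exons of Nr1d1 meet Thra on the other strand over 263 bases, 8.55% of their length, and strand use in counting is not stated. Thra itself averaged 11.5 CPM in control, 11.02 CPM in LPS (log2 −0.06, adjusted p 0.735) and 9.69 CPM with (GT)6 SWCNT (−0.26, adjusted p 0.119).

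Nr1d2 (ENSMUSG00000021775.11, chromosome 14, 18204054 to 18239127, minus strand, protein-coding), the gene of REV-ERB beta, was not called in LPS or with either nanotube. In LPS it read 21.5, 20.4 and 22.9 CPM against 20.1, 21.0 and 21.6 CPM in control (log2 0.05, 95% interval −0.10 to 0.20, adjusted p 0.682). With (GT)6 SWCNT it read 18.9, 19.0 and 22.7 CPM (−0.06, adjusted p 0.645). Whether the paralogs differ was not tested. The only call was in DiBASC2, at 22.8, 26.6 and 25.2 CPM, where Nr1d2 rose by 0.25 ± 0.07 or 1.19-fold (adjusted p 0.0275). It was lost without control replicate 1 or 2 or DiBASC2 replicate 2 or 3 (adjusted p up to 0.168).

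Dbp and Tef encode PAR bZIP transcription factors that carry clock output through D-box sites. Dbp (ENSMUSG00000059824.12, chromosome 7, 45705088 to 45710203, plus strand, protein-coding) read 7.31, 7.28 and 7.64 CPM in control, 6.03, 4.83 and 5.80 CPM in LPS, 6.36, 6.84 and 4.22 CPM in (GT)6 SWCNT and 6.33, 5.06 and 6.36 CPM in COOH SWCNT. All 9 libraries of these treatments lay below every control library. Dbp fell by 0.42 ± 0.14 in LPS (adjusted p 0.0188), which did not pass without control replicate 3 or LPS replicate 2 (adjusted p up to 0.135). The values of −0.32 ± 0.13 in (GT)6 SWCNT and −0.31 ± 0.13 in COOH SWCNT did not pass (adjusted p 0.0879 and 0.0936). The former was −0.15 without (GT)6 SWCNT replicate 3, and it passed without replicate 2 of that group and with library size only (adjusted p down to 0.0407). DiBASC2 stood at the other end with 9.67, 8.97 and 9.11 CPM, above every control library, at 0.32 ± 0.12 (adjusted p 0.127). Dbp shares 539 bases, 18% of its exon length, with Sphk2 on the other strand, and Sphk2 averaged 32.997 CPM in control, 30.5 CPM in LPS (adjusted p 0.132) and 29.2 CPM in (GT)6 SWCNT, where it was called lower (−0.18, adjusted p 0.0203).

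Tef (ENSMUSG00000022389.15, chromosome 15, 81802421 to 81826863, plus strand, protein-coding) gave the firmest fall. It read 38.4, 40.4 and 44.6 CPM in control, 27.6, 28.6 and 31.8 CPM in LPS and 31.3, 28.4 and 35.7 CPM in (GT)6 SWCNT. The libraries of both treatments lay below those of control. Tef fell by 0.49 ± 0.07 in LPS, to 71.4% of control (adjusted p 2.55e-07), and by 0.38 ± 0.07 in (GT)6 SWCNT, to 76.8% (adjusted p 2.73e-05). COOH SWCNT libraries read 40.02, 38.7 and 38.7 CPM and overlapped control (−0.07, 95% interval −0.20 to 0.06, adjusted p 0.489). The nanotube groups differed from each other in Tef, with (GT)6 SWCNT lower by −0.31 ± 0.07 (adjusted p 0.000619), and COOH SWCNT stood 1.33-fold above LPS (adjusted p 3.5e-06). Tef overlaps Gm17597 on the other strand over 193 bases, 2.45% of its exon length.

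Bhlhe40 (ENSMUSG00000030103.11, chromosome 6, 108660629 to 108666925, plus strand, protein-coding) encodes DEC1, an E-box repressor that also acts in immune cells. It was the member that LPS and the nanotubes moved in opposite directions. It read 108.7, 108.2 and 103.9 CPM in control, 87.5, 87.4 and 96.1 CPM in LPS, 173, 165 and 148 CPM in (GT)6 SWCNT and 145, 158 and 138 CPM in COOH SWCNT. The LPS libraries lay below the controls and the 6 nanotube libraries above every library of the other 6 groups. Bhlhe40 rose 1.52-fold in (GT)6 SWCNT (log2 0.60 ± 0.05, adjusted p 1.34e-11) and 1.37-fold in COOH SWCNT (0.46 ± 0.05, adjusted p 2.69e-08), and fell by 0.24 ± 0.05 in LPS (adjusted p 0.000586). Tested directly, it stood 1.796-fold above LPS in (GT)6 SWCNT (adjusted p 9.6e-16) and 1.62-fold above it in COOH SWCNT (adjusted p 2.03e-13). (GT)6 SWCNT exceeded COOH SWCNT by 0.15 ± 0.05 (adjusted p 0.0369), a call lost in 6 of 15 alternatives, among them upper-quartile scaling and the omission of either (GT)6 SWCNT replicate 1 or 2 or COOH SWCNT replicate 1 or 3 (adjusted p up to 0.241). Bhlhe40 shares 2.51% of its exon length with 0610040F04Rik on the other strand.

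Few members stood apart from control with the remaining probes. With Fura-2 no member was called by edgeR and none had an unadjusted p under 0.05. The largest value was Nr1d1 at 0.23 ± 0.12, with libraries at 6.73, 6.83 and 6.66 CPM. With Di-2-ANEPEQ no member was called by edgeR, and 1, Bhlhe40, had an unadjusted p under 0.05 (0.14 ± 0.05, adjusted p 0.154). DESeq2 called no member in either group. It gave Per2, Nr1d1, Dbp and Arntl no adjusted p there or in AAV, so it could not call these genes. In AAV no member was called by edgeR and 1 had an unadjusted p under 0.05. This was again Bhlhe40 at 114, 123 and 121 CPM, above all controls (0.16 ± 0.05, adjusted p 0.0723), and 5 of 15 alternatives, DESeq2 among them, called it. The 95% intervals of Per1 in these 3 groups reached from −0.02 to 0.21 in Fura-2, from −0.03 to 0.20 in Di-2-ANEPEQ and from −0.03 to 0.20 in AAV, all below the nanotube values of 0.67 and 0.53.

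DiBASC2 had 6 members with an unadjusted p under 0.05 though only Nr1d2 was called. The share of all genes tested under that unadjusted threshold was not counted, here or for the other probes. Whether 6 of the 10 is more than that share was therefore not tested. Per1 (49.9, 50.6 and 58.7 CPM, −0.14 ± 0.06), Per2 and Cry1 (31.4, 32.5 and 28.7 CPM, −0.16 ± 0.06) were on the low side, and Nr1d1 (6.90, 7.07 and 6.76 CPM, 0.26 ± 0.12), Nr1d2 and Dbp on the high side, with adjusted p from 0.121 to 0.202 for those that did not pass. Against the other voltage-sensitive dye, Di-2-ANEPEQ, 3 members were called where 8.95% of all genes were, 3.47% higher and 5.48% lower. Per1 was lower in DiBASC2 by −0.22 ± 0.06 (adjusted p 0.00882) and Bhlhe40 by −0.21 ± 0.05 (adjusted p 0.00848), and Nr1d2 was higher by 0.24 ± 0.07 (adjusted p 0.022). The Per1 call was lost without DiBASC2 replicate 1 or 2, the Bhlhe40 call without DiBASC2 replicate 1, and the Nr1d2 call without DiBASC2 replicate 2 or Di-2-ANEPEQ replicate 1 or 3 (adjusted p up to 0.155). The doses of the dyes are not given in the sources used here, so the values stand side by side as deposited.

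Directly against LPS, 5 members were called in (GT)6 SWCNT, with Per1, Per2 and Bhlhe40 higher and Cry1 and Clock lower (21.6% of all genes were called, 9.63% higher and 11.9% lower). For COOH SWCNT 7 were called, with Nr1d1 and Tef added on the higher side (37.8% of all genes, 18.1% higher and 19.7% lower). Between the nanotube groups 2 were called, Bhlhe40 higher and Tef lower with (GT)6 SWCNT. There 21.4% of all genes were called, 11.9% higher and 9.48% lower, a share near that of the members. The COOH SWCNT count against LPS fell to between 5 and 6 when single libraries were left out.

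Of 21 further clock genes, 17 were tested: paralogs, the ROR, NFIL3 and HLF branch, and the kinases and ubiquitin ligases that set PER and CRY stability. In LPS 7 were called, 4 higher and 3 lower, where 28.3% of all genes tested were called. With (GT)6 SWCNT 6 were called, 4 higher and 2 lower (20.4% of all genes), and with COOH SWCNT 5, 4 higher and 1 lower (20.0%). DiBASC2 had 4, 2 in each direction (5.47% of all genes), and AAV 2, both higher (5.00%). Fura-2 (0.252%) and Di-2-ANEPEQ (3.08%) had 0 in edgeR, with 3 and 7 at an unadjusted p under 0.05, and 0 in DESeq2. No share of all genes at the unadjusted threshold was counted beside the 3 and 7. However, DESeq2 gave at least Rora, Ciart, Per3, Cry2 and Usp2 no adjusted p in Fura-2, Di-2-ANEPEQ or AAV, so it could not call them. Only part of the further list was checked for this, and the scarcer Npas2 and Arntl2 were not. The median log2 fold changes of this list lay between −0.05 in LPS and 0.07 in COOH SWCNT, beside −0.01 in LPS and −0.0016 in COOH SWCNT over all genes tested.

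**Figure D3:**
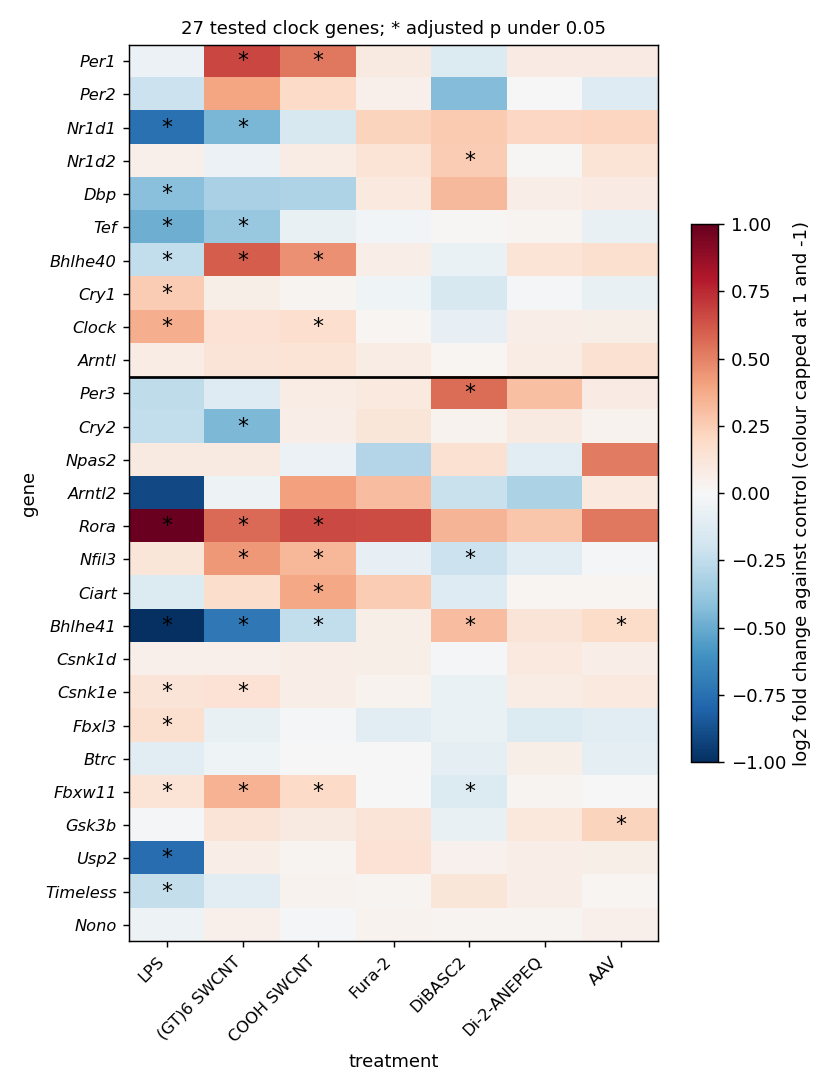
Log2 fold change against control (colour, capped at 1 and −1) of the 10 clock genes above the line and 17 other tested clock genes below it, in 7 treatments on the horizontal axis; asterisks mark an adjusted p under 0.05. LPS and the nanotube groups carry most of the asterisks, while Fura-2 and Di-2-ANEPEQ carry none.

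The largest change in the family was in Bhlhe41, the paralog of Bhlhe40 that encodes DEC2. It read 55.9, 50.6 and 48.8 CPM in control, 10.3, 11.4 and 12.4 CPM in LPS, 31.003, 31.8 and 31.9 CPM in (GT)6 SWCNT and 44.4, 43.2 and 43.3 CPM in COOH SWCNT. No library of these 3 treatments reached the lowest control. Bhlhe41 fell by 2.18 ± 0.06 on the log2 scale in LPS (adjusted p 2.6e-26), by 0.71 ± 0.05 in (GT)6 SWCNT (adjusted p 3.58e-13) and by 0.24 ± 0.05 in COOH SWCNT (adjusted p 0.000613). In the nanotube groups the paralogs therefore went opposite ways, each past its own test, with Bhlhe40 called higher and Bhlhe41 called lower. Bhlhe41 rose in DiBASC2, at 63.5, 61.6 and 67.0 CPM (0.31 ± 0.05, adjusted p 7.98e-05). In AAV it was called higher at 0.19 ± 0.05 (adjusted p 0.0249), which was lost without control replicate 2 or 3 or AAV replicate 2 or 3 and with length and GC trends removed (adjusted p up to 0.15). Bhlhe41 shares 19% of its exon length with Gm43909 on the other strand, and how many of its reads lie there was not tested.

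Rora encodes a receptor that activates Arntl at the sites REV-ERB represses, and it rose in LPS and with both nanotubes. It read 2.42, 3.53 and 2.24 CPM in control, 4.67, 5.13 and 6.64 CPM in LPS, 3.57, 5.12 and 3.57 CPM in (GT)6 SWCNT and 5.35, 4.41 and 3.41 CPM in COOH SWCNT. The LPS and (GT)6 SWCNT libraries lay above control and the COOH SWCNT libraries overlapped it. The log2 fold changes were 0.98 ± 0.19 (adjusted p 6.78e-05), 0.57 ± 0.19 (adjusted p 0.0344) and 0.66 ± 0.19 (adjusted p 0.011). The nanotube calls were lost without control replicate 1 or 3, and without (GT)6 SWCNT replicate 2 or COOH SWCNT replicate 1 respectively (adjusted p up to 0.29). Fura-2 (0.65 ± 0.19, adjusted p 0.144) and AAV (0.53 ± 0.19, adjusted p 0.0916) did not pass, though their libraries also lay above control. Ciart, an E-box repressor, rose in COOH SWCNT (0.39 ± 0.13, adjusted p 0.0302), lost in 4 of the 6 fits that left out a library, all but those without control replicate 1 or COOH SWCNT replicate 3, and in DESeq2 (adjusted p up to 0.18). Gsk3b, a kinase that phosphorylates PER and REV-ERB alpha, rose in AAV from 84.2 ± 0.978 to 98.3 ± 0.949 CPM (SD, n = 3; log2 0.22 ± 0.05, adjusted p 0.00444).

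Per3 and Cry2 are the remaining paralogs of members. Per3 read 3.85, 3.66 and 4.01 CPM in control and passed only in DiBASC2, at 6.00, 4.82 and 6.204 CPM (0.56 ± 0.13, adjusted p 0.00606). With (GT)6 SWCNT, where Per1 rose, Per3 stood at −0.13 with a 95% interval from −0.42 to 0.16. Cry2 read 7.20, 7.32 and 5.77 CPM in control and 5.13, 5.33 and 4.34 CPM in (GT)6 SWCNT, where it fell by 0.45 ± 0.13 (adjusted p 0.0133), a call lost without control replicate 1 or 2 or (GT)6 SWCNT replicate 3 (adjusted p up to 0.105). In LPS, where Cry1 rose, Cry2 stood at −0.25 with an interval from −0.52 to 0.02. Differences between paralogs were not tested.

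Nfil3, Fbxw11 and Usp2 were among the other called genes of the list and were named after their values were seen. Not every called gene of the list is named here. Nfil3, a repressor at the D-box sites that DBP and TEF activate, read 36.4, 35.9 and 38.6 CPM in control, 50.2, 49.4 and 49.98 CPM in (GT)6 SWCNT and 46.2, 47.1 and 45.9 CPM in COOH SWCNT. It rose by 0.43 ± 0.05 (adjusted p 3.53e-08) and 0.33 ± 0.05 (adjusted p 1.18e-05), and fell by 0.22 ± 0.05 in DiBASC2 (adjusted p 0.0118), the last not without control replicate 3 or DiBASC2 replicate 1. Fbxw11, a ubiquitin ligase subunit that targets PER proteins, rose from 153 ± 1.92 CPM to 195 ± 4.19 CPM in (GT)6 SWCNT (0.35 ± 0.04, adjusted p 1.65e-09) and was called higher in COOH SWCNT (0.19 ± 0.04, adjusted p 0.000258). It was also called higher in LPS (0.14 ± 0.04, adjusted p 0.00405), which was lost with library size only (adjusted p 0.182). In DiBASC2 it was called lower (−0.14 ± 0.04, adjusted p 0.0219), a call lost in 9 of 15 alternatives, among them the omission of any control replicate or of DiBASC2 replicate 1 or 2 (adjusted p up to 0.101). Usp2, a deubiquitinase with clock-driven expression, fell by 0.76 ± 0.13 in LPS (adjusted p 8.98e-06), from 7.91, 8.51 and 6.51 CPM to 4.78, 4.35 and 4.49 CPM.

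**Figure D4:**
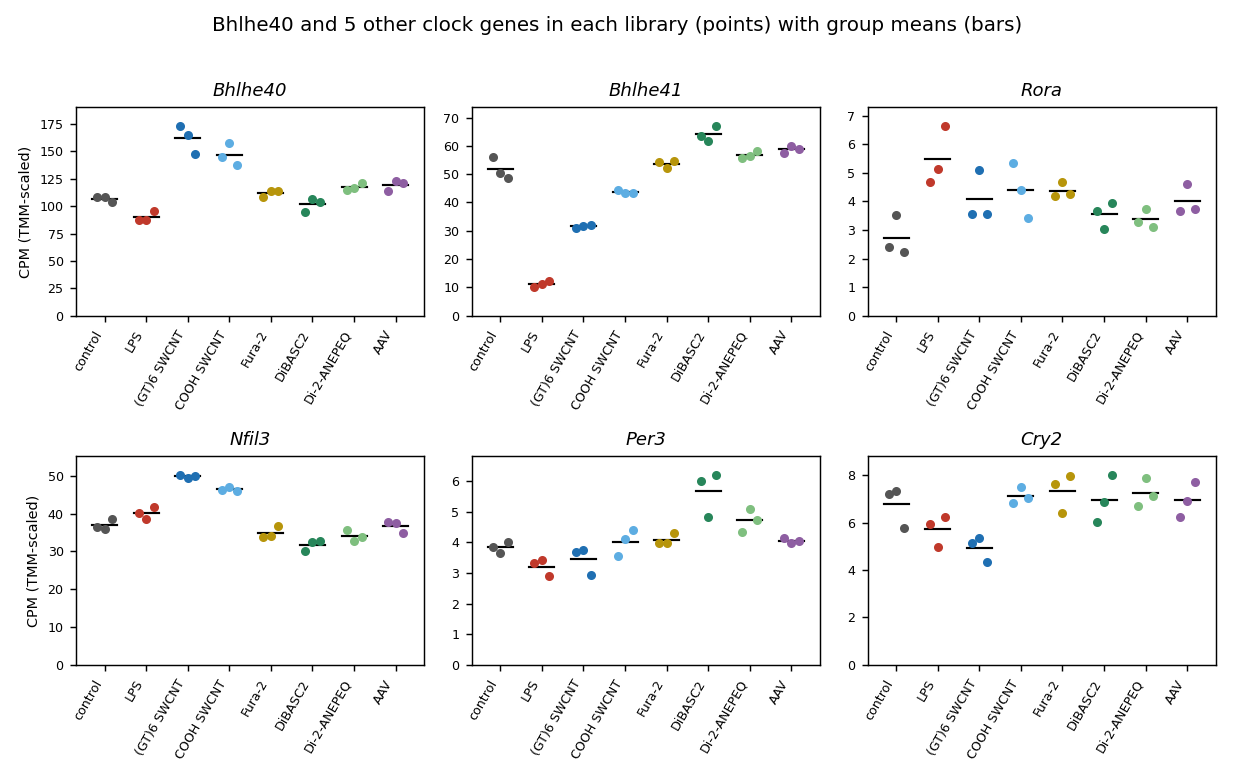
Level (CPM after TMM scaling, vertical axis from 0) of Bhlhe40, its paralog Bhlhe41, Rora, Nfil3, Per3 and Cry2 in the 8 groups on the horizontal axis; points are the 3 libraries of a group and bars their mean. In both nanotube groups Bhlhe40 and Nfil3 lie above control and Bhlhe41 below it, and in LPS Bhlhe41 is at 10.3 to 12.4 CPM.

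For the 3 members with the widest range over groups, the genes with the most similar pattern of 8 group means were sought among some 9492 genes averaging at least 5 CPM. These points share libraries, scaling and control, and Pearson's r over 8 groups is given as a description. For Nr1d1 they were Bcl9l (r = 0.995), Pctp (0.994) and Zmynd8 (0.993). Zmynd8, a reader of histone marks, went from 97.2 ± 5.18 CPM in control to 72.1 ± 3.197 CPM in LPS and 78.9 ± 4.07 CPM in (GT)6 SWCNT. For Bhlhe40 they were Usp4 (0.990), Slc44a2 (0.984) and Dhrs9 (0.982). Dhrs9, a short-chain dehydrogenase, stood at 74.5 ± 5.25 CPM in control, 58.7 ± 3.35 CPM in LPS, 115 ± 2.05 CPM in (GT)6 SWCNT and 96.4 ± 2.95 CPM in COOH SWCNT. For Per2 they were Aars (0.963), Cfap43 (0.953) and Ppp1r13b (0.951). Among the members themselves, Per1 and Bhlhe40 had r = 0.951 over the 8 groups, Nr1d1 and Tef 0.938, and Cry1 and Clock 0.938, while Nr1d1 and Cry1 had r = −0.906. Across libraries with group means removed, Per1 and Bhlhe40 had r = 0.587. Nr1d1 and Tef then had −0.539, Cry1 and Clock −0.228, and Nr1d1 and Cry1 −0.0818.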

How the data were processed

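The values are whole-number read counts for each gene, unnormalized, as the authors deposited them for the 24 libraries. STAR 2.5.4b and build GRCm38.p6 are named in the submitters' processing notes. The counting tool, strand setting and annotation release are not given in the sources used here. The table spells the dye of the DiBASC2 titles DiSBAC2, and 54809 of 54838 identifiers matched GENCODE M21, 53947 with their version.

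The tests used edgeR 4.0.16 under R 4.3.3: filterByExpr (13116 genes kept), TMM factors, one group-mean model over all libraries and glmQLFTest, two-sided. Standard errors are the absolute log2 fold change over the square root of F. The fit was also run on simulated counts in which a small set of genes changed in LPS alone. In the data 28.3% of genes were called in LPS, so the simulation does not match them there. The 24 replicate pairs differed by more than sampling noise (chi-square per degree of freedom 2.46 to 19.4), so each library counted once. Members and lists were chosen with earlier results of these data known. Genes named by rule were all members, Per3, Cry2, the 3 genes most alike to each of 3 members, and Tnf, Il1b and Il6. By the same rule the 2 called genes of the further list with the largest absolute log2 fold change in each treatment were named. Nfil3, Fbxw11 and Usp2, picked after their values were seen, and the genes under Other observations are among those named outside this rule. Alternatives were other scalings and filters, DESeq2 1.42.0, pairwise fits, a replicate block, single libraries left out and, chosen after seeing the data, removal of length and GC trends.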

Additional observations from a re-analysis of the deposited data

How the results depend on the processing

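Of 70 pairs of a member and a treatment against control, 14 were called, and 10 of these stayed called in all 15 alternatives run for each. The 4 that did not were Dbp in LPS, Nr1d1 in (GT)6 SWCNT, Nr1d2 in DiBASC2 and Clock in COOH SWCNT, and 6 uncalled pairs gained a call in at least 1. No called pair changed sign, whereas 20 uncalled pairs did. No scaling moved the median of all genes by over 0.1, but scaling did move the split by direction. In LPS 1809 of all genes were called higher and 1908 lower. With upper-quartile factors these were 1455 and 2660, and with library size only 1292 and 3329. Of 162 counts of called clock genes under 9 alternatives that kept all libraries, 152 stayed within 1.5 times. In these counts a gene without a DESeq2 adjusted p was taken as uncalled. The members called between the nanotube groups went from 2 to 1 with upper-quartile factors and with library size only. In AAV the members called went from 0 to 1 without the low-count filter, in the fit of only the 2 groups, with the DESeq2 test and with length and GC trends removed, where the further clock genes called went from 2 to 1. The members called in Di-2-ANEPEQ went from 0 to 1 in the fit of only the 2 groups and in DiBASC2 from 1 to 2 with length and GC trends removed, and in Fura-2 the further genes went from 0 to 1 without the filter.

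With single libraries left out, the members called ranged from 5 to 6 in LPS, 3 to 5 in (GT)6 SWCNT, 2 to 3 in COOH SWCNT, 0 to 1 in DiBASC2 and in AAV, and stayed at 0 in Fura-2 and Di-2-ANEPEQ. They ranged from 3 to 5 for (GT)6 SWCNT against LPS (3 without LPS replicate 2), 5 to 6 for COOH SWCNT against LPS, 1 to 4 between the nanotube groups (4 without (GT)6 SWCNT replicate 3, and 1 without its replicate 1 or 2 or COOH SWCNT replicate 1 or 3) and 1 to 3 between the voltage dyes (1 without DiBASC2 replicate 1 or 2). The members called were 0 in DiBASC2 without control replicate 1 or 2 or DiBASC2 replicate 2, and 1 in AAV without AAV replicate 1. The further genes called ranged from 6 to 7 in LPS, 4 to 7 in (GT)6 SWCNT, 3 to 6 in COOH SWCNT, 0 to 1 in Fura-2, 2 to 4 in DiBASC2 and 1 to 2 in AAV, and stayed at 0 in Di-2-ANEPEQ. Without control replicate 3 they were 3 in COOH SWCNT, 2 in DiBASC2 and 1 in AAV, and COOH SWCNT replicate 1, DiBASC2 replicate 1, AAV replicates 2 and 3 and, for Fura-2, control replicate 2 moved them by as much. Same-numbered libraries of different groups did not deviate together (r from −0.10 to 0.07 over 28 pairs of groups). The labels do not say what the numbers mark. This correlation over all genes cannot show whether such libraries shared a plate or day. With the replicate number as a block, the members called were 1 for DiBASC2, 3 for COOH SWCNT, 4 for (GT)6 SWCNT and 6 for LPS, as without it, with 6 rather than 7 for COOH SWCNT against LPS and 3 rather than 2 between the nanotube groups. The causes of these shifts were not tested. Of the members, Per2 had the fewest counts, 47 to 123 per library.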

Other observations

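Rorb (a ROR receptor), Hlf (the third PAR bZIP factor) and Fbxl21 (a cryptochrome ligase subunit) held at most 1 count in any of the 24 libraries. Npas2, which can stand in for CLOCK, and Arntl2, the paralog of Arntl, were tested at low depth, with means of 18.6 and 14.5 counts per library. Arntl2 read 8, 2 and 10 counts in LPS and 24, 22 and 13 counts in COOH SWCNT, and this pair of groups was the only one of those compared in which either gene was called (log2 1.32 ± 0.43, adjusted p 0.013). The kinase genes Csnk1d and Csnk1e, whose products mark PER proteins for decay, were among the most abundant of the list, at 25.7 ± 0.921 and 24.8 ± 0.479 CPM per kb in control (SD, n = 3).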
